A study of Mus musculus with 24 samples.

Results

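The CXC chemokine ligands described here are Cxcl1, Cxcl2, Cxcl3, Cxcl10 and Cxcl16, 5 of the 54838 genes in a table of raw read counts from SIM-A9 cells, a spontaneously immortalised mouse microglial line. They were taken by gene symbol, after the Ensembl identifiers of the table had been paired with GENCODE M21 names. Poly-A RNA was measured in 24 libraries, in 8 groups of 3. The groups were control cells (Control), lipopolysaccharide (LPS, the positive control for inflammation) and 2 kinds of single-walled carbon nanotube, (GT)6 SWCNT and carboxylated SWCNT (COOH SWCNT). The other groups were the dyes Fura-2, DiBASC2 and Di-2-ANEPEQ, and AAV. (GT)6 is the name of a short DNA strand used to wrap nanotubes, Fura-2 is a calcium indicator, DiBASC2 and Di-2-ANEPEQ belong to the voltage-sensitive dyes, and AAV is an adeno-associated virus, a gene carrier. All groups, Control included, were held in serum-free medium for 2 h, and RNA was taken 2 h after a 10-fold concentrate had been added to the wells (30 uL to 270 uL). All cells came from 1 line, no dose is given in the sources used here, and neither whether replicates were separate cultures, so each p-value measures the spread between these libraries. In bulk RNA, fewer expressing cells and less RNA per cell cannot be told apart.

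CXC chemokines are small secreted proteins that draw leukocytes along a gradient. Cxcl1, Cxcl2 and Cxcl3 act on the receptor CXCR2 and attract neutrophils, Cxcl10 acts on CXCR3 and attracts activated T cells and NK cells, and Cxcl16 is made as a membrane protein that binds CXCR6 and is released by the protease ADAM10. Microglia, the resident macrophages of the brain, sense LPS through TLR4, which signals through NF-kB and, by way of the adaptor TRIF (gene Ticam1), through IRF3 to interferon beta. NF-kB is a known activator of Cxcl1, Cxcl2 and Cxcl3, and Cxcl10 is known to respond to NF-kB and to interferons.

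Cxcl1 (ENSMUSG00000029380.11, 90891241 to 90893115), Cxcl2 (ENSMUSG00000058427.10, 90903871 to 90905938) and Cxcl3 (ENSMUSG00000029379.10, 90786103 to 90789600) lie on the plus strand of chromosome 5 within one chemokine cluster. Cxcl10 (ENSMUSG00000034855.13) lies on the minus strand of the same chromosome, at 92346638 to 92348889, and Cxcl16 (ENSMUSG00000018920.11) on the minus strand of chromosome 11, at 70453983 to 70459984. All are protein-coding and positions are those of GENCODE M21 on GRCm38. The stretches just upstream of the start are shown for the members with a RefSeq promoter entry (4 of 5), because NF-kB and interferon factors act there and because these genes were read side by side. They are from RefSeq, build GRCm38.p6, at chr5:90890995-90891240 (plus), chr5:90903649-90903870 (plus), chr5:90785851-90786100 (plus) and chr5:92348890-92349139 (minus). Capitals mark matches to the kappaB consensus and, in Cxcl10, also to the interferon-stimulated response element.
Cxcl1: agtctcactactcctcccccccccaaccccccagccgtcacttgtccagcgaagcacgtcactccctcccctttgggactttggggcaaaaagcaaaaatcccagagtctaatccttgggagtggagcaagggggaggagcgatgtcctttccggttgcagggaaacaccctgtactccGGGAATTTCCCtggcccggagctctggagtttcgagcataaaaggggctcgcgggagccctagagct
Cxcl2: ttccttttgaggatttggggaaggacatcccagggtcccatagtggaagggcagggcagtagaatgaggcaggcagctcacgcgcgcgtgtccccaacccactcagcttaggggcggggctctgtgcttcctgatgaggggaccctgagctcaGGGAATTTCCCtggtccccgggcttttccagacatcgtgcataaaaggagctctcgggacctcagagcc
Cxcl3: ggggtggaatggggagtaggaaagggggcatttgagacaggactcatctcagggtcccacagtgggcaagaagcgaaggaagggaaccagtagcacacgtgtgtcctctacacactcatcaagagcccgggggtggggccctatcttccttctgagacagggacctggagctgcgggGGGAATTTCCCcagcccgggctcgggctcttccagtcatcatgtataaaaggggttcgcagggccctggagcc
Cxcl10: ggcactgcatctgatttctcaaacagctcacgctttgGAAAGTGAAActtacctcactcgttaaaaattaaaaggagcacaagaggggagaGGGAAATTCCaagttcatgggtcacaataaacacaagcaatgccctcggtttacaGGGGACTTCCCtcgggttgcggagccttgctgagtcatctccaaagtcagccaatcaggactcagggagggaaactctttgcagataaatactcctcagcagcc

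The promoters of Cxcl1, Cxcl2 and Cxcl3 hold the same 11-base run, GGGAATTTCCC, a pair of overlapping kappaB matches. Its first base lies 71 bases before the start in Cxcl1, 97 in Cxcl2 and 73 in Cxcl3, counted back from the RefSeq start. The stretches shown for Cxcl1 (246 bases) and Cxcl2 (222 bases) are shorter than the 250 bases of Cxcl3 and Cxcl10. Both end at the base before the GENCODE start, short of the RefSeq start used for counting. Their distances therefore do not run from the last base shown, and the larger value of Cxcl2 depends on the start used. Cxcl10 holds GGGAAATTCC from 159 to 150 bases before the start and GGGGACTTCCC from 104 to 94. It also holds the interferon-stimulated response element as GAAAGTGAAA from 213 to 204. Both strands were searched. Over the 250 bases before the start, 7.25% of 32851 RefSeq promoters hold the kappaB consensus and 2.98% the interferon element. The AP-1 motif (TGANTCA, in 6.75% of promoters) was found 74 to 68 bases before the start of Cxcl10, and TATAAA (in 12.4%) 30 to 25 bases before that of Cxcl3. These are matches of letters, and no binding was measured.

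Total counts lay between 17364272 and 29259221 per library. All 12 microglia and macrophage markers passed the low-count filter, with a summed level of 2500 to 2760 CPM (counts scaled to a common library size), so the cells carried the transcripts their label names. None of the 4 neutrophil, astrocyte, neuron or fibroblast markers passed it. Of 4 oligodendrocyte markers, 2 passed, with summed levels of 3.51 to 5.80 CPM and Mog at 0 in every library. The numbers that end the column names run in blocks by group, and what they stand for is not given. If they follow library order, that order and treatment cannot be told apart. Each comparison with Control uses the same 3 Control libraries.

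Only Cxcl2, Cxcl10 and Cxcl16 passed the low-count filter, 3 of the 5 members, and the abundant ones were Cxcl2 and Cxcl10. Cxcl1 and Cxcl3 were too low to judge in any group. Cxcl16 was scarce throughout, with 4 to 24 counts per library. Levels below are CPM after scaling with TMM factors, and calls were made with edgeR's quasi-likelihood test where the p adjusted over 13116 genes (Benjamini-Hochberg) was under 0.05.

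Cxcl2 was the abundant member among the CXCR2 ligands described here. LPS raised it 91.2-fold, (GT)6 SWCNT 7.02-fold and COOH SWCNT 2.79-fold over Control. The Control libraries held 15.2, 11.3 and 12.5 CPM of Cxcl2 (12.99 ± 1.97, SD, n = 3), and the LPS libraries 1079, 1222 and 1223 CPM (1175 ± 83.1). With (GT)6 SWCNT the level was 85.6, 89.9 and 96.6 CPM (90.7 ± 5.53). With COOH SWCNT it was 35.7, 36.9 and 35.5 CPM (36.04 ± 0.767). These 4 groups did not overlap with each other, and no library of another group came above the lowest COOH SWCNT library. Of all genes tested, 38.3%, 34.3% and 34.4% also had no overlap with Control in LPS, (GT)6 SWCNT and COOH SWCNT. By level, Cxcl2 went from rank 8170 of the 13116 genes in Control to rank 80 in LPS and rank 2767 in (GT)6 SWCNT. The log2 fold change was 6.51 ± 0.08 (SE, adjusted p 3.68e-38, edgeR) for LPS, the 9th highest of all genes. It was 2.81 ± 0.08 for (GT)6 SWCNT (adjusted p 1.26e-24), the 12th highest, and 1.48 ± 0.09 for COOH SWCNT (adjusted p 3.32e-15), the 77th highest.

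Cxcl10, the CXCR3 ligand, rose in the same 3 groups, by 32.6-fold with LPS, 3.10-fold with (GT)6 SWCNT and 2.16-fold with COOH SWCNT. Control libraries held 5.66, 6.17 and 4.97 CPM of Cxcl10 (5.60 ± 0.604) and LPS libraries 171, 183 and 197 CPM (184 ± 13.1). The (GT)6 SWCNT libraries held 17.5, 18.7 and 16.0 CPM (17.4 ± 1.35). The COOH SWCNT libraries held 11.5, 11.2 and 13.7 CPM (12.1 ± 1.34). As for Cxcl2, these groups stood apart from each other in every library. The log2 fold changes were 5.03 ± 0.08 with LPS (adjusted p 6.69e-34, edgeR), 1.63 ± 0.10 with (GT)6 SWCNT (2.11e-15) and 1.11 ± 0.11 with COOH SWCNT (6.33e-10). The annotation shares 133 exon bases of Cxcl10 with Art3 on the other strand, and Art3 held 0 to 6 counts per library.

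**Figure D1:**
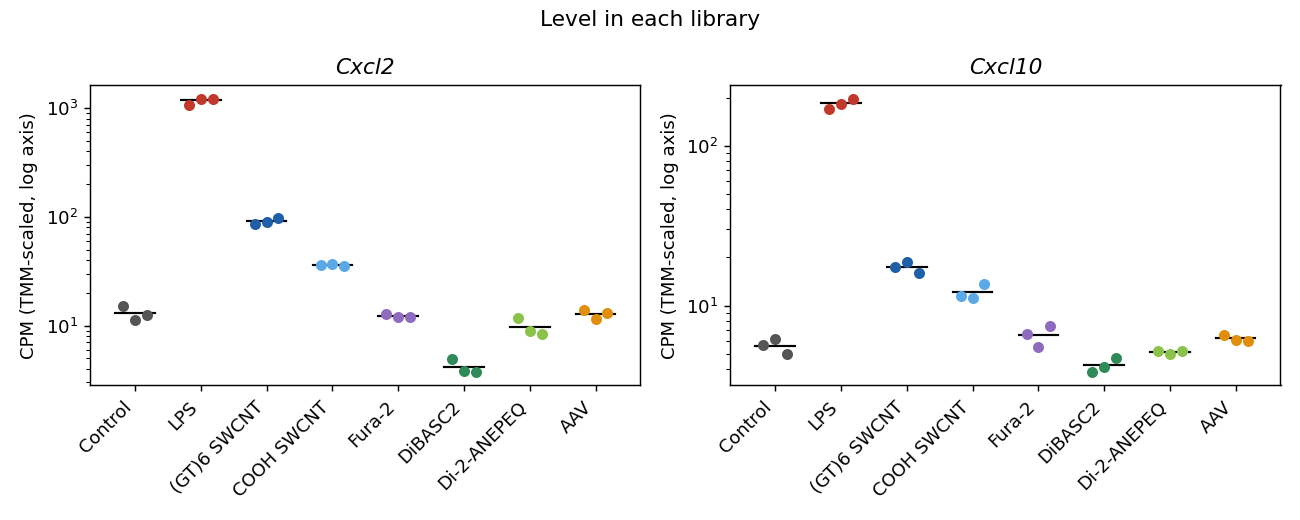
Level of Cxcl2 (left) and Cxcl10 (right) in each of the 24 libraries, in TMM-scaled CPM on a log axis, by treatment group; points are libraries and lines are group means. LPS libraries lie highest, followed by (GT)6 SWCNT and COOH SWCNT, and the DiBASC2 libraries lie lowest in both panels.

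Cxcl16, the transmembrane ligand, rose with LPS and, less securely, with COOH SWCNT. Its counts were 6, 5 and 4 in Control, 20, 17 and 18 in LPS, and 12, 8 and 24 in COOH SWCNT. The LPS libraries lay above all Control libraries, and in COOH SWCNT the highest count was that of replicate 3. The log2 fold change was 1.86 ± 0.43 with LPS (SE, adjusted p 0.000788, edgeR), with a 95% interval from 0.99 to 2.72. With COOH SWCNT it was 1.29 ± 0.45 (adjusted p 0.0364), and with no filter the adjusted p was 0.0825. Without COOH SWCNT replicate 3 it was 0.79 (adjusted p 0.299), and the call was also lost without Control replicate 1 (0.0508), 2 (0.128) or 3 (0.107). Of the exon bases of Cxcl16, 552 are shared with Zmynd15 on the other strand. Zmynd15 held 1 to 13 counts per library, so reads of this pair cannot be told apart if counting ignored strand.

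In the other groups Cxcl16 gave no call. Counts were 10, 12 and 4 with (GT)6 SWCNT, 10, 9 and 6 with DiBASC2 and 13, 10 and 6 with Di-2-ANEPEQ. These groups and Control average under 10 counts per library, so the differences are too low to judge. Fura-2 (10, 6 and 14 counts) and AAV (11, 10 and 15 counts) gave log2 fold changes of 0.75 (95% interval −0.22 to 1.73, adjusted p 0.605, edgeR) and 0.79 (−0.15 to 1.74, adjusted p 0.336).

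Cxcl1 had 3, 6 and 13 counts in the LPS libraries and 0 in each of the other 21. The 22 LPS counts (exact Poisson 95% interval 13.8 to 33.3, counting error only) are 7.35 times the level that 3 counts over the Control group would give. At the lower limit they are 4.61 times that level. These limits carry no error of the floor and no spread between libraries. Cxcl3 had 6, 4 and 10 counts in LPS, 20 in all (12.2 to 30.9), which is 6.68 times the same floor and 4.08 times at the lower limit. The other 21 libraries held 10 Cxcl3 counts together, of which (GT)6 SWCNT had 0, 3 and 2. Their LPS means, 7.33 and 6.67 counts, are under 10, and the filter dropped both. With no filter both passed in LPS against Control, at adjusted p 0.00728 for Cxcl1 and 0.00534 for Cxcl3 (edgeR). At such counts these values are a description, and both genes stay too low to judge. For scale, Cxcl2 averaged 1175 CPM in the same libraries, while Cxcl1 averaged 0.355 ± 0.229 CPM. Of the 3587 windows of 50 bases in the exons of Cxcl3, 154 (4.29%) also occur in other genes. Of the 2159 windows of Cxcl2, 126 also occur in Cxcl3, and of those of Cxcl1 none occur in another gene (0 of 1970). The handling of reads with several matches is not given in the sources used here, and its part in the Cxcl3 counts was not tested.

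**Figure D2:**
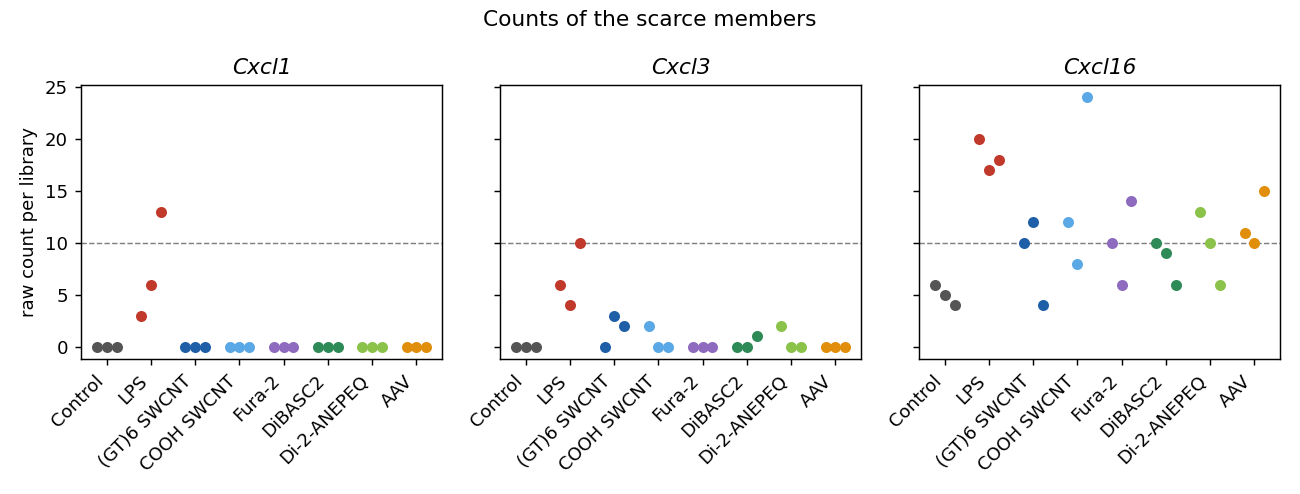
Raw counts of Cxcl1, Cxcl3 and Cxcl16 in each library, by treatment group, with a dashed line at 10 counts. Cxcl1 appears in LPS alone (3 to 13 counts), Cxcl3 reaches 10 counts in 1 LPS library, and Cxcl16 ranges from 4 to 24 counts.

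Counted over the tested members, LPS raised 3 of 3, where 13.8% of all genes tested were called higher. COOH SWCNT raised 3 of 3 (background 9.39%), or 2 of 3 where the Cxcl16 call was lost, and (GT)6 SWCNT 2 of 3 (9.90%). With (GT)6 SWCNT the third, Cxcl16, was too low to judge. The median log2 fold change of the 3 members was 5.03 for LPS, 1.63 for (GT)6 SWCNT and 1.29 for COOH SWCNT, while the medians over all genes were −0.0084, −0.017 and −0.0016. The counts cover only the members that passed the filter and describe these 3. Members and comparison lists were chosen with earlier results of these data known, so setting the counts beside the all-gene shares is no test. With upper-quartile scaling, 35.4% of the genes called in LPS were higher, against 48.7% with TMM, and the members' calls in these 3 groups were the same.

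With DiBASC2 the Cxcl2 level fell to 4.95, 3.84 and 3.77 CPM (4.18 ± 0.663), which was 3.07-fold lower than Control with no overlap (as for 22.6% of genes tested). The log2 fold change was −1.62 ± 0.13 (adjusted p 1.73e-10, edgeR), the 10th lowest of 13116 genes. Cxcl10 was at 3.86, 4.15 and 4.71 CPM with DiBASC2 (4.24 ± 0.430), below every Control library. Its log2 fold change was −0.42 ± 0.13 with an adjusted p of 0.0499, at the threshold. That call was lost without Control replicate 1 (0.149) or 2 (0.251) and without DiBASC2 replicate 1 (0.164) or 2 (0.120). It was also lost with upper-quartile scaling (0.0710), and the replicate block moved it to 0.0554. DiBASC2 thus gave 2 of 3 members called lower against 3.64% of all genes, or 1 of 3 under those settings. Cxcl16, the third, was too low to judge there.

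With Di-2-ANEPEQ, Cxcl2 was at 11.7, 8.90 and 8.39 CPM (9.65 ± 1.76), with the first library inside the Control range. The log2 fold change was −0.40 ± 0.11 (adjusted p 0.0335, edgeR). With Cxcl16 too low to judge, this made 1 of 3 members called lower, where 2.39% of genes were. That call was lost without Control replicate 1 (0.3005) or 3 (0.0836) and without Di-2-ANEPEQ replicate 2 (0.179) or 3 (0.194). Cxcl10 was at 5.19, 4.97 and 5.20 CPM, a log2 fold change of −0.14 (95% interval −0.39 to 0.11, adjusted p 0.630).

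Fura-2 and AAV gave no call for any member. Background shares were 0.252% of genes called in either direction for Fura-2 and 5.00% for AAV. Cxcl2 held 12.7, 11.96 and 11.9 CPM with Fura-2 (12.2 ± 0.449) and 13.9, 11.4 and 13.03 CPM with AAV (12.8 ± 1.27), within the Control range. The log2 fold changes were −0.08 (95% interval −0.30 to 0.14, adjusted p 0.849, edgeR) and −0.01 (−0.22 to 0.20, adjusted p 0.962). Cxcl10 held 6.65, 5.53 and 7.51 CPM with Fura-2 (0.23, −0.01 to 0.48, adjusted p 0.488). With AAV it held 6.57, 6.14 and 6.02 CPM (0.15, −0.09 to 0.39, adjusted p 0.510). At an unadjusted p under 0.05 neither group had a member either, and DESeq2 called none.

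**Figure D3:**
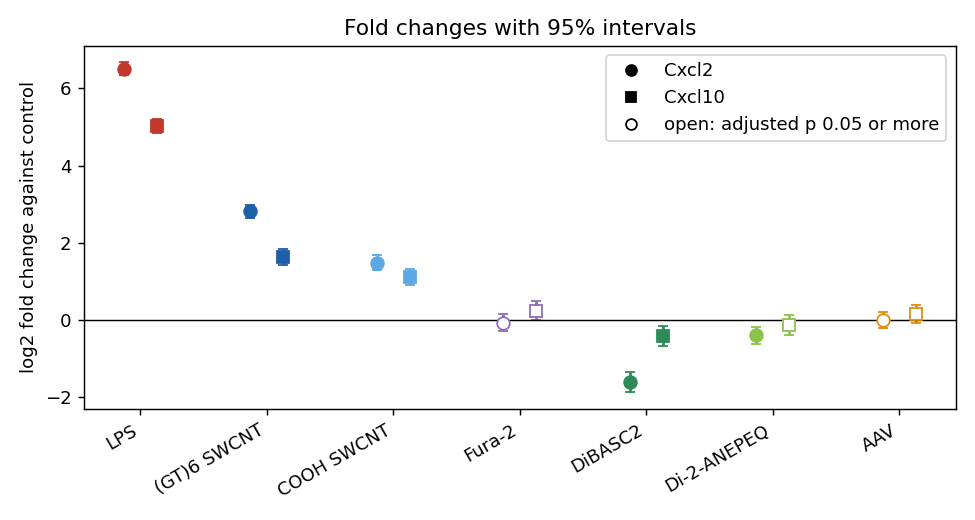
Log2 fold change of Cxcl2 (circles) and Cxcl10 (squares) against Control for the 7 treatments, with 95% intervals from the edgeR fit; open symbols have an adjusted p of 0.05 or more. Both genes lie above 0 for LPS and the nanotubes and below 0 for DiBASC2, and the intervals of Fura-2 and AAV include 0.

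In order of the mean, Cxcl2 ran LPS, (GT)6 SWCNT, COOH SWCNT, Control, AAV, Fura-2, Di-2-ANEPEQ and DiBASC2. Control and AAV overlapped, as did AAV and Fura-2. Each other neighbouring pair in that order was separate in all libraries, Fura-2 and Di-2-ANEPEQ only narrowly (lowest 11.9 against highest 11.7 CPM). This order is a description. Shares of all genes so separated are given above only for groups against Control. Cxcl10 ran LPS, (GT)6 SWCNT, COOH SWCNT, Fura-2, AAV, Control, Di-2-ANEPEQ and DiBASC2. There the middle of the order, from Fura-2 to Di-2-ANEPEQ, overlapped from one neighbour to the next.

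The design text names LPS as the comparison for the inflammatory response, so the nanotubes were also set against it. Cxcl2 was 12.99-fold lower with (GT)6 SWCNT than with LPS and 32.6-fold lower with COOH SWCNT. Cxcl10 was 10.5-fold and 15.1-fold lower. The log2 differences of Cxcl2 were −3.70 ± 0.06 and −5.03 ± 0.07, and those of Cxcl10 −3.40 ± 0.07 and −3.92 ± 0.07. Cxcl16 was lower than in LPS with (GT)6 SWCNT (−1.18 ± 0.38, adjusted p 0.0218, edgeR), a call lost without LPS replicate 1 (0.0884), without (GT)6 SWCNT replicate 1 (0.0632) or 3 (0.0953), and with no filter (0.0539). With COOH SWCNT the Cxcl16 difference from LPS was −0.56 (95% interval −1.27 to 0.14, adjusted p 0.213), and without COOH SWCNT replicate 3 it was −1.07 (0.0344). So 3 of 3 members were called lower for (GT)6 SWCNT (background 11.9%) and 2 of 3 for COOH SWCNT (19.7%).

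The nanotubes differed from each other in both abundant members. Cxcl2 was 2.51-fold higher with (GT)6 SWCNT than with COOH SWCNT (log2 difference 1.33 ± 0.07, adjusted p 3.01e-16, edgeR). Cxcl10 was 1.44-fold higher (0.52 ± 0.09, adjusted p 3.04e-05), and Cxcl16 gave −0.62 (95% interval −1.43 to 0.19, adjusted p 0.288). This makes 2 of 3 members higher, where 11.9% of all genes were. Between the dyes, Cxcl2 was 2.33-fold lower with DiBASC2 than with Di-2-ANEPEQ (−1.22 ± 0.13, adjusted p 3.41e-08). Cxcl10 gave −0.28 (−0.53 to −0.02, adjusted p 0.166), so 1 of 3 members was called lower against 5.48% of genes. Cxcl16 was too low to judge between the dyes. Whether doses matched within either pair is not given in the sources used here.

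Cxcl2 moved further than Cxcl10 wherever both were called. The log2 ratio of Cxcl2 to Cxcl10 within a library was 1.197 ± 0.29 in Control (SD, n = 3), 2.68 ± 0.05 in LPS and 2.38 ± 0.18 in (GT)6 SWCNT. It was 1.57 ± 0.18 in COOH SWCNT, which overlapped with Control. In DiBASC2 the ratio was 0.35, −0.11 and −0.32, so the genes stood near equal levels in CPM. The LPS and (GT)6 SWCNT libraries all lay above Control and the DiBASC2 libraries all below it. With 3 libraries against 3, a two-sided exact permutation test cannot go below p = 0.1, so the ratio is given as a description.

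**Figure D4:**
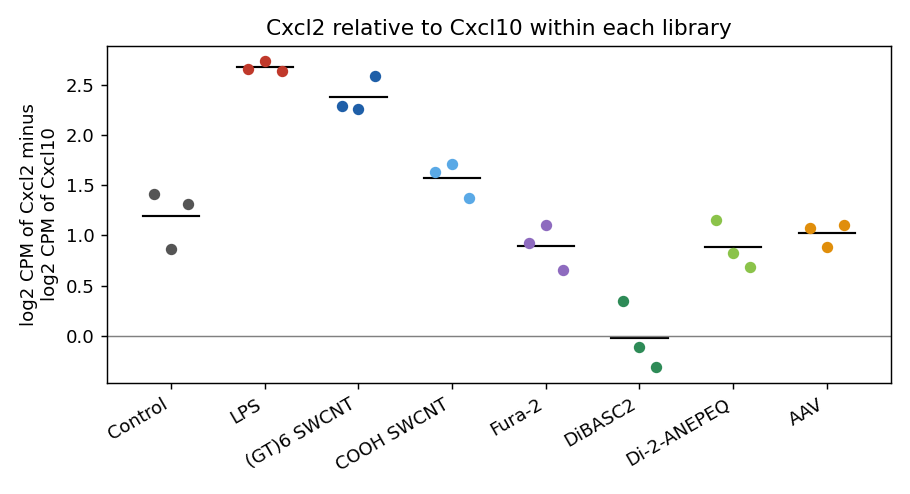
Log2 CPM of Cxcl2 minus log2 CPM of Cxcl10 within each library (y axis) by treatment group; points are libraries and lines are group means. LPS and (GT)6 SWCNT lie above 2, Control between 0.87 and 1.41, and DiBASC2 around 0.

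Per kilobase of exon, Cxcl2 made up 70.8% ± 4.12 of the 5 members' summed level in Control and Cxcl10 28.3% ± 4.20 (SD, n = 3). In LPS the shares were 87.4% ± 0.418 and 12.5% ± 0.400. In (GT)6 SWCNT they were 84.7% ± 1.63 and 14.96% ± 1.55, and in COOH SWCNT 75.7% ± 2.53 and 23.4% ± 2.12. In DiBASC2 they were 50.2% ± 5.71 and 47.05% ± 5.94. Cxcl16 held 0.0473% in LPS and 2.60% in DiBASC2. The lengths are the union of annotated exons, and with the longest protein-coding transcript the LPS shares were 82.2% and 17.7%. With that length the DiBASC2 shares were 40.8% ± 5.73 for Cxcl2 and 56.9% ± 5.77 for Cxcl10, so which of them was higher in DiBASC2 depends on the length used. The sum covers these 5 genes only: per kilobase, Pf4 was at 135 ± 5.18 and Cxcl14 at 72.4 ± 1.31 CPM in DiBASC2, against 2.02 for Cxcl2 (union of exons).

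**Figure D5:**
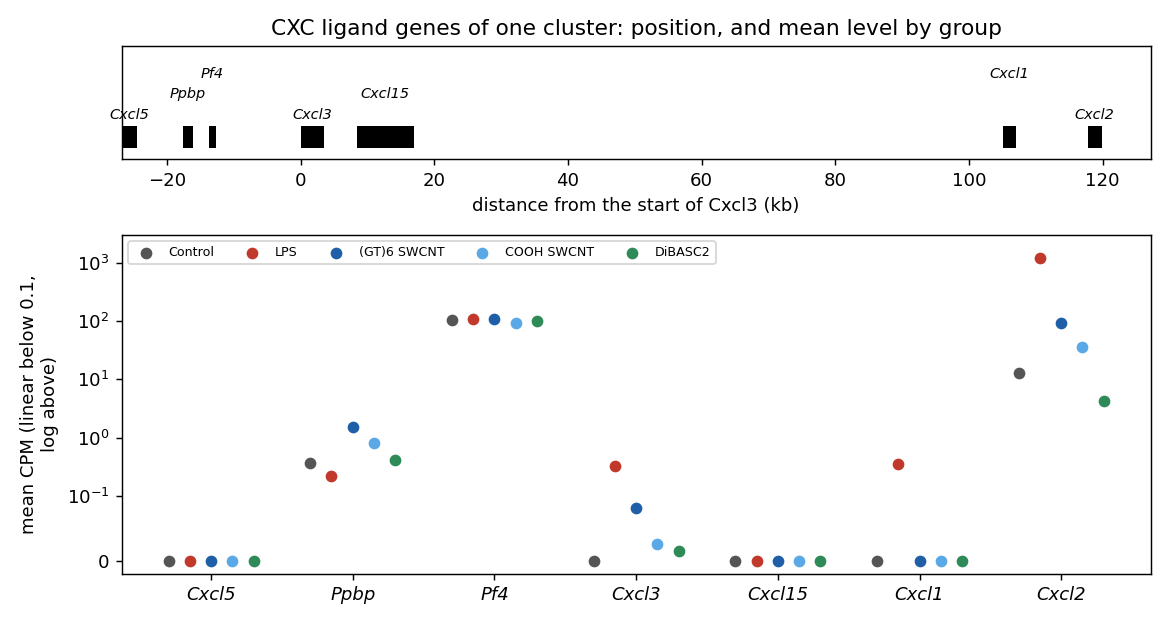
Top, positions of the CXC ligand genes of the cluster on chromosome 5 in kb from the start of Cxcl3, with the 2 members Cxcl1 and Cxcl2 at 105 and 118 kb. Bottom, their mean CPM in 5 of the groups (linear below 0.1, log above): Cxcl2 changes across the groups, Pf4 stays near 100 CPM and Cxcl5 and Cxcl15 are at 0.

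Of the 10 other CXC ligands listed for comparison, 3 passed the filter, namely Cxcl14, Pf4 and Ppbp. Pf4 (platelet factor, 13.7 kb upstream of Cxcl3) was at 102 CPM in Control and 109 CPM in LPS, a log2 fold change of 0.11 that was not called (adjusted p 0.168, edgeR). Cxcl14 fell slightly with LPS, from 140 to 121 CPM (−0.21 ± 0.05, adjusted p 0.000462), and rose with (GT)6 SWCNT to 181 CPM (0.38 ± 0.04, adjusted p 1.95e-08). Ppbp (the precursor of platelet basic protein, another CXCR2 ligand) had 9, 5 and 7 counts in Control and 47, 26 and 25 with (GT)6 SWCNT. That was a log2 fold change of 2.09 ± 0.39 (adjusted p 7.28e-05), and with COOH SWCNT it rose by 1.196 ± 0.42 (adjusted p 0.0407). With LPS Ppbp had 5, 4 and 4 counts (−0.68, 95% interval −1.82 to 0.46, adjusted p 0.415). The directions of Cxcl2 and Ppbp therefore matched with the nanotubes. With LPS, Ppbp averaged under 10 counts in both groups, so it was too low to judge and cannot be set against Cxcl2. Pf4 fell with COOH SWCNT by 0.15 (adjusted p 0.0482), a call lost with DESeq2 size factors (0.0534) and upper-quartile factors (0.0624). No gene of this list was called by edgeR with Fura-2, DiBASC2, Di-2-ANEPEQ or AAV, and none had an unadjusted p under 0.05 there. The interferon-type neighbours of Cxcl10 were near 0. Cxcl9 had 1, 3 and 1 counts in LPS and 0 elsewhere. Cxcl11, annotated as a polymorphic pseudogene, had at most 4 counts in any library.

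Of 10 receptors and sheddases, 5 passed the filter. Cxcr2, the receptor of Cxcl1, Cxcl2 and Cxcl3, averaged 2.65 CPM in Control and 2.11 CPM in LPS (log2 fold change −0.31, 95% interval −0.74 to 0.12, adjusted p 0.311, edgeR). Cxcr3, the receptor of Cxcl10, fell with LPS from 8.11 to 5.88 CPM (−0.46 ± 0.11, adjusted p 0.0017) and rose with (GT)6 SWCNT to 10.4 CPM (0.35 ± 0.10, adjusted p 0.0119). Cxcr6, the receptor of Cxcl16, had 0 counts in every library. Cxcr4, a receptor of none of these members, fell with LPS by 1.66 on the log2 scale (adjusted p 4.51e-10). With (GT)6 SWCNT it fell by 0.39 (adjusted p 0.0480), a call lost with DESeq2 size factors (0.0571). Adam10, the sheddase of Cxcl16, was at 228 CPM in Control and 221 CPM in LPS (−0.05, 95% interval −0.13 to 0.03, adjusted p 0.395), and Adam17, a related sheddase, rose with LPS by 0.41 ± 0.04 (adjusted p 1.65e-10). In all, 1 gene of this list rose and 2 fell with LPS, and 2 rose and 1 fell with (GT)6 SWCNT (1 rose with upper-quartile factors, where Adam17 lost its call). Over all genes 13.8% were higher and 14.5% lower with LPS, and 9.90% higher and 10.5% lower with (GT)6 SWCNT. None was called by edgeR with AAV, COOH SWCNT, Di-2-ANEPEQ, DiBASC2 or Fura-2, where 1, 1, 2, 0 and 1 had an unadjusted p under 0.05.

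The NF-kB genes listed for comparison mostly rose in the groups where Cxcl2 rose. With LPS 12 of 12 rose (median log2 fold change 1.17), led by Nfkbiz, an atypical I-kB that coactivates NF-kB targets (5.72 ± 0.05, adjusted p 3.95e-42, edgeR), and Tnfaip3, the feedback inhibitor A20 (3.19 ± 0.06). With (GT)6 SWCNT 12 of 12 rose (median 0.41), led by the subunit gene Rel (0.74 ± 0.05) and Tnfaip3 (0.68 ± 0.06). With COOH SWCNT 10 of 12 rose (median 0.38), led by Tnfaip3 (0.69 ± 0.06) and Bcl3 (0.55 ± 0.09). With DiBASC2 7 of 12 fell (median −0.18), led by Nfkbia, the inhibitor I-kB alpha (−0.44 ± 0.05, adjusted p 7.05e-08), and Nfkbiz (−0.36 ± 0.07, adjusted p 0.000701), and with upper-quartile scaling 5 fell. With Di-2-ANEPEQ 1 fell, and with Fura-2 and AAV none was called, while 2 had an unadjusted p under 0.05 in each. The all-gene shares given above for each comparison are the background of these counts. The list was chosen with earlier results of these data known, so these counts describe its genes and test nothing.

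The interferon genes, upstream and companions of Cxcl10, were less uniform. With LPS 8 of 16 rose and 3 fell (median 0.27), where 13.8% of all genes were higher and 14.5% lower. Ifnb1, the gene of interferon beta, had 10, 9 and 14 counts in LPS and 0, 0 and 1 in Control (adjusted p 0.000209, edgeR). At the lower Poisson limit the LPS counts were 7.59-fold above a floor of 3 counts over the Control group. The other 21 libraries held 11 counts together, so Ifnb1 passed the filter through LPS. Its call, counted among the 8, is therefore a description. Irf1, a transcription factor of the pathway, rose by 2.16 ± 0.05. With (GT)6 SWCNT 5 rose and 2 fell (all genes 9.90% and 10.5%), led by Ticam1 (0.98 ± 0.08, adjusted p 2.07e-12) and Stat2 (−0.71 ± 0.12, adjusted p 2.64e-05). With COOH SWCNT 3 rose and 2 fell (all genes 9.39% and 10.6%), led by Irf9 (−0.70 ± 0.14) and Ticam1 (0.51 ± 0.08). None of the 16 was called with DiBASC2, Di-2-ANEPEQ, Fura-2 or AAV, where 3, 0, 1 and 1 had an unadjusted p under 0.05, and with upper-quartile scaling 2 were called higher in DiBASC2.

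Short-lived chemokine transcripts are known to be controlled by mRNA-binding proteins. Of 10 such genes, 5 rose and 1 fell with LPS, 4 rose and 1 fell with (GT)6 SWCNT, and 5 rose and 1 fell with COOH SWCNT. The shares of all genes called higher were 13.8%, 9.90% and 9.39%, and lower 14.5%, 10.5% and 10.6%. With upper-quartile factors 4 rose with LPS, since Elavl1 lost its call. With AAV 1 gene of this list was called higher, where 5.00% of all genes were called in either direction. None was called with Fura-2 or Di-2-ANEPEQ. At an unadjusted p under 0.05 (edgeR) there were 3 with AAV, 2 with Fura-2 and 2 with Di-2-ANEPEQ. Zfp36 (tristetraprolin, which promotes decay of AU-rich transcripts) rose by 2.19 ± 0.06 with LPS, 1.40 ± 0.06 with (GT)6 SWCNT and 1.09 ± 0.06 with COOH SWCNT. It fell by 0.38 with DiBASC2 (adjusted p 0.000197, edgeR), so its order across these groups was that of Cxcl2. Zc3h12a (the RNase Regnase) rose by 4.08 ± 0.08 with LPS and 0.46 ± 0.11 with COOH SWCNT. Zfp36l2 fell by 0.54 with (GT)6 SWCNT, and Zfp36l1 rose by 0.24 ± 0.07 with DiBASC2 (adjusted p 0.0427).

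Among the markers of other cell types, 1 gene on the endothelial list, Kdr, moved with these groups. It was called lower with LPS (log2 fold change −0.47) and (GT)6 SWCNT (−0.33). Of the 4 endothelial markers only Kdr passed the filter, and Cldn5 was at 0 in every library. The summed level of the 4, mostly that of Kdr, was 90.8 to 102 CPM in LPS and 102 to 109 CPM in (GT)6 SWCNT. It was 119 to 142 CPM over the other groups. Its part in the chemokine results was not tested.

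The genes whose log2 CPM most resembled each member were found among 9492 genes of at least 5 CPM, as Pearson's r over the 24 libraries. This is a description, since the libraries share groups and a few groups set most of r. For Cxcl2 they were Nlrp3, an inflammasome sensor (0.994), Cflar, an inhibitor of apoptosis (0.994), and the cytokine Il1b (0.993). Over the 21 libraries without LPS they were Ptgs2 (0.990), which makes prostaglandins, and the transcription factor Maff (0.989). For Cxcl10 they were the cytokine Tnf (0.997) and Ptgs2 (0.995), and without LPS Il1b (0.982) and Tnf (0.979). Cxcl16 had weaker partners, Bcl3 (0.782), Fam20c (0.782) and Susd6 (0.777), and without LPS Cpne2 (0.682) and Mtm1 (0.654). At its counts these are weak likenesses. Cxcl2 and Cxcl10 had r = 0.980 with each other over 24 libraries and 0.957 over the 21 without LPS.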

How the data were processed

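RNA of 24 SIM-A9 libraries (8 groups of 3) was analysed from 1 table. The authors deposited raw read counts per gene, whole numbers that sum to 17364272 to 29259221 per library. STAR 2.5.4b and GRCm38.p6 are named in the submitters' processing notes. The counting tool, strand setting, annotation release and treatment of multi-mapped reads are not given in the sources used here. Symbols came from GENCODE M21: 53861 identifiers matched with their version, 54723 without it, and 115 did not match. Groups and replicate numbers came from titles. The DiBASC2 treatment label ends in another number in each library, column names spell it DiSBAC2, and the spelling of Di-2-ANEPEQ varies.

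Counts were fitted with edgeR 4.0.16 (R 4.3.3): filterByExpr, TMM factors and 1 quasi-likelihood model over all libraries (16 residual degrees of freedom, biological coefficient of variation 4.12%). The 11 contrasts were two-sided, with Benjamini-Hochberg adjustment over 13116 genes and calls at 0.05. SE is the absolute log2 fold change over the square root of F. A member was too low to judge if the filter dropped it or if both groups averaged under 10 counts, and a group was at the floor if no library held more than 3 counts; folds over the floor use 3 counts over the group. The script was tested on simulated data. Replicate pairs differed by more than sampling noise (chi-square per degree of freedom 2.43 to 18.9, 24 pairs). Named genes were the members, the genes most like them, the 2 most changed called genes of each list, and the receptors, sheddases and Ifnb1 of the members. One gene that the rule names is not reported here. Members and lists were chosen with earlier results of these data known. The alternatives comprised size factors from DESeq2, upper-quartile factors, testing without a filter or at 50 counts on average, the replicate block, fits of only the groups compared, the DESeq2 1.42.0 Wald test, other gene lengths, and leaving out each library; the protein-coding transcript length was added after seeing the data.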

Additional observations from a re-analysis of the deposited data

How the results depend on the processing

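The rises of Cxcl2 and Cxcl10 with LPS and both nanotubes and the fall of Cxcl2 with DiBASC2 kept their direction and call under every alternative run and without each library in turn. Under alternatives that kept all libraries, 201 member values kept direction and side of the threshold and 5 lost the call. Cxcl16 gave no value at a mean of at least 50 counts, which removes it. Those 5 were Cxcl10 in DiBASC2 with upper-quartile factors (−0.39), the replicate block (−0.42) and the fit of only 2 groups (−0.41), each leaving 1 member called, and Cxcl16 with no filter in COOH SWCNT against Control (1.29) and (GT)6 SWCNT against LPS (−1.18). With no filter Cxcl1 and Cxcl3 entered, giving 5 members called in LPS against Control and 4 in COOH SWCNT against LPS. Both genes were too low to judge, so their calls there are a description. All-gene calls with Fura-2 were 188 with no filter, 80 in the fit of only 2 groups and 86 with the DESeq2 Wald test, against 33, and 814 with Di-2-ANEPEQ in the fit of only 2 groups, against 404.

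Leaving out 1 library at a time, all-gene calls ranged over 157 to 769 (AAV), 120 to 418 (Di-2-ANEPEQ), 333 to 574 (DiBASC2), 610 to 1284 (DiBASC2 against Di-2-ANEPEQ) and 0 to 106 (Fura-2). Members called ranged over 0 to 1 with Di-2-ANEPEQ and 1 to 2 with DiBASC2. Log2 fold changes ranged over −0.49 to −0.33 (Cxcl10, DiBASC2), −0.58 to −0.28 (Cxcl2, Di-2-ANEPEQ), −1.43 to −0.97 (Cxcl16, (GT)6 SWCNT against LPS), 0.79 to 1.52 (Cxcl16, COOH SWCNT) and −1.07 to −0.37 (Cxcl16, COOH SWCNT against LPS). Cxcl2 changed sign, uncalled, with AAV (0.07 without AAV replicate 2 and 0.11 without Control replicate 1; −0.11 to 0.11 in all) and Fura-2 (0.043 without Control replicate 1; −0.18 to 0.04 in all). The cause was not tested.

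With upper-quartile factors the share of called genes that were higher was 54.9% in DiBASC2 (33.3% with TMM), 26.3% in AAV (36.7%), 57.5% in (GT)6 SWCNT against LPS (44.6%), 62.5% in COOH SWCNT against LPS (47.9%), 44.4% in (GT)6 SWCNT against COOH SWCNT (55.6%) and 63.4% in DiBASC2 against Di-2-ANEPEQ (38.8%). In AAV it was 48.1% with the DESeq2 Wald test. In Fura-2 it was 30.0% in the fit of only 2 groups and 29.1% with the DESeq2 Wald test, against 15.2%. Replicate numbers did not pair the libraries: of 33 same-numbered pairs none had deviations correlated over 0.1 (−0.104 to 0.0696), and 14 correlated best with their own number. Of 80 per-length shares under other gene lengths, 21 moved by more than 1 SD. Depth limits Cxcl1, Cxcl3 and Cxcl16, whose counts never passed 24 in a library.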

Other observations

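Hbegf and Slc20a1 resembled Cxcl2 and Cxcl10 across the nanotubes and dyes but were at lower levels in the LPS libraries than in the nanotube libraries. That difference is described here by level only. The other closest genes without LPS went the other way from (GT)6 SWCNT to LPS. Ptgs2 was at 133 and 1209 CPM, Maff at 75.5 and 208, Il1b at 47.5 and 443, and Tnf at 92.3 and 1144. Without the LPS libraries, Hbegf, a growth factor of the EGF family, was the third closest gene to Cxcl2 (r = 0.988 over 21 libraries), and Slc20a1, a phosphate transporter, the third closest to Cxcl10 (0.979). Hbegf and Slc20a1 were picked after their values were seen. Hbegf was at 22.4 ± 1.73 CPM in Control (SD, n = 3), 52.7 ± 2.91 with (GT)6 SWCNT, 35.2 ± 0.241 with COOH SWCNT and 14.6 ± 0.337 with DiBASC2, and at 29.1 ± 0.578 in LPS. Its LPS libraries lay below every COOH SWCNT library, while those of Cxcl2 lay above every (GT)6 SWCNT library. The share of all genes separated in this way is not given here. Slc20a1 was at 159 ± 12.1 CPM in Control, 356 ± 11.0 with (GT)6 SWCNT, 280 ± 8.58 with COOH SWCNT, 127 ± 5.26 with DiBASC2 and 215 ± 8.66 in LPS. Both rose with LPS (log2 fold change 0.38 ± 0.07, adjusted p 3.51e-05, for Hbegf and 0.44 ± 0.05, adjusted p 9.90e-10, for Slc20a1, edgeR).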
